A study of Mus musculus with 87 samples.

Results

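The 10 genes described here encode parts of the cytoskeleton, the axonal transport machinery and the RNA-binding proteins of postmitotic neurons: Ina, Nefl, Nefm, Tubb3, Map2, Stmn2, Dcx, Kif1a, Elavl3 and Elavl4. They were read by gene symbol, out of 26171 symbols per table, in 13 deposited RNA-seq comparisons. These cover embryonic stem cells of the mouse (ESC) and neuronal precursors (NP) differentiated from such cells, and all 10 were found in every table. The members were chosen by measured log2 fold changes, because Ina and Kif1a were lower in the Suz12 knock-out and 3D ESC lines and Dcx was higher in rescued NP. The 5 comparisons behind that choice (ESC KO, KO-L3D and KO-S3D against WT, and NP KO-L and KO-S against KO) are therefore described without a test, and the other 8 are tested. The ESC comparisons among the 8 share the WT samples used in the choice. NP KO against WT and NP WT against KO share its KO samples. Values of Ina, Kif1a and Dcx there are therefore not independent of the choice.

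Suz12 is a core subunit of the Polycomb enzyme PRC2, whose histone mark is H3K27me3, and the study varied the inclusion of its exon 4. All samples were polyA RNA from the mouse line 129-B13. ESC were grown in 20% serum with LIF, and NP were obtained by forming embryoid bodies, adding retinoic acid on day 4 and harvesting on day 8. Samples of a group are numbered in the labels, which do not say whether they are separate clones or cultures, so the p-values measure the spread between these samples only. The ESC groups were unmodified wild type (WT, 3 samples), a line with constitutive exon 4 (CSex4, 2), a line with exon 4 deleted (Deltaex4, 2), the full Suz12 knock-out (KO, 3), and that knock-out carrying a long-isoform (KO-L, 2) or short-isoform (KO-S, 2) rescue. KO-L3D and KO-S3D (2 each) are the knock-out with a long or short isoform, placed in the Rosa26 locus, that bears the 3D mutation at position 196. The NP groups were 4 WT samples and 2 each of KO, its 2 rescues KO-L and KO-S, Deltaex4 and CSex4. Every rescue group shares the loss of endogenous Suz12 with the KO.

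Neurofilament light and medium chains (Nefl, Nefm) and alpha-internexin (Ina) are intermediate filament proteins that assemble together in axons. Class III beta-tubulin (Tubb3) is a neuronal tubulin, Map2 and doublecortin (Dcx) bind microtubules in dendrites and in young migrating neurons, and stathmin-2 (Stmn2) binds tubulin in growth cones. Kif1a is a kinesin motor that carries synaptic vesicle precursors along axons, and Elavl3 and Elavl4 are neuronal Hu proteins that bind and regulate mRNA. PRC2 and H3K27me3 lie at CpG-rich promoters of many developmental genes in ESC.

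Suz12 mRNA, the check of the labels, had log2 fold changes of -1.82 in ESC KO and -2.14 in NP KO against WT in the authors' deposited tables. The libraries labelled KO-S3D stood at -0.06 against WT, while KO-L3D stood at -1.85, in the authors' deposited tables. The unmutated ESC rescues were also called below WT there, at -1.05 in KO-L (adjusted p 0.0143) and -0.83 in KO-S (adjusted p 0.0345). ESC Deltaex4 stood at -1.28, which was not called, and ESC CSex4 at 0.02. The sum of mean scaled reads over genes was 26085140 to 31499803 across the tables. All ESC tables share the WT group, 3 NP tables (KO, CSex4 and Deltaex4 against WT) share 2 WT samples, the other 2 are in the NP WT vs KO table, and 4 NP tables share the 2 KO samples, per the labels. Values from different tables are therefore set side by side and not correlated.

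The sequence upstream of the start site is shown for Kif1a, Ina and Dcx, the 3 genes on which the choice of the set rested, because they differ in CpG content and in the regions deposited around them. Each run is the 250 bases before the start in the RefSeq promoter table (GRCm38.p6), in the direction of transcription, with CG dinucleotides in capitals. Kif1a lies at chr1:93101875-93102124 (minus strand, 22 CG), Ina at chr19:47014431-47014680 (plus strand, 25 CG) and Dcx at chrX:143933220-143933469 (minus strand, 3 CG).
Kif1a: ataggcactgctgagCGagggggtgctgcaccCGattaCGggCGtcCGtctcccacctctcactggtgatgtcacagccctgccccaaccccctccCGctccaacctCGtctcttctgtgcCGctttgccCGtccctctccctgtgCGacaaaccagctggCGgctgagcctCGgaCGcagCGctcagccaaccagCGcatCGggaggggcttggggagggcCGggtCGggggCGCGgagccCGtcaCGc
Ina: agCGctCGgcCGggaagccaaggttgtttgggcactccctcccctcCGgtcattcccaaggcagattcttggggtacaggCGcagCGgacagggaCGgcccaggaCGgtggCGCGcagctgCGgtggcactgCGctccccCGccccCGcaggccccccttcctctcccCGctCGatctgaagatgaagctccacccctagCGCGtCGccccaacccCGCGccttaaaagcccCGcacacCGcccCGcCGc
Dcx: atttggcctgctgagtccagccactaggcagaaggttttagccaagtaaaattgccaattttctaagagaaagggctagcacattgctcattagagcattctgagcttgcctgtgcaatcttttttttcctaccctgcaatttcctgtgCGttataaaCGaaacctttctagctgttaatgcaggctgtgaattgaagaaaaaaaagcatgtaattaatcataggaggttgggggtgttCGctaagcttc

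Of the 10 genes, 7 had an entry in the promoter table, and Stmn2, Nefl and Nefm had none. Counted over the full 300 bases of an entry (250 before and 50 after the start), Map2 held 37 CG, Ina 32, Elavl3 29, Tubb3 26, and the first entries of Kif1a and Elavl4 24 and 23, against a median of 12 over 23268 promoters. Both Dcx entries held 3, and 17.6% of promoters held fewer. The later entries of Kif1a and Elavl4 were also poor in CG, with 1 in the second of Kif1a and 5, 6 and 4 in those of Elavl4. The left part of the RE1 element bound by the repressor REST, TTCAGCACC, searched on both strands, was in 0 of the 12 entries of these genes, against 0.404% of all promoters. At so low a share, 0 of 12 cannot show whether these genes hold it less often than others. CAGCTG, an E-box that reads the same on both strands and whose first letters, CAGC, also stand inside TTCAGCACC, was in 6 of the 12 entries, from Ina, Kif1a, Elavl3 and Elavl4, against 16.2% of all promoters. The Elavl4 entries with CAGCTG overlap and hold the same site, which is counted once for each. By gene, the E-box was in 4 of 7.

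The authors' 2 lists of ESC regions, named for WT and made with DiffBind at a false discovery rate of 5%, were compared with these start sites. Their headers give neither the groups compared nor the build, which the submitters' processing notes name as mm10, so an absent region does not mean that a mark was absent. Kif1a was the only one of the 7 genes with a Suz12 region within 2500 bp of a start, at chr1:93099925-93102821, and an H3K27me3 region of 6318 bp at chr1:93098521-93104838 covered the same start. Over 19502 genes, 9.35% had a Suz12 region at this distance. H3K27me3 regions lay at 4 of the 7 genes, against 17.9% of all genes. Those of Ina (chr19:47012804-47016684) and Elavl3 (chr9:22050769-22053309) covered the start, and that of Tubb3 (chr8:123407860-123411352) ended 201 bp before it. The nearest H3K27me3 regions to Dcx, Map2 and Elavl4 were 537775, 290421 and 297697 bp away.

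**Figure D1:**
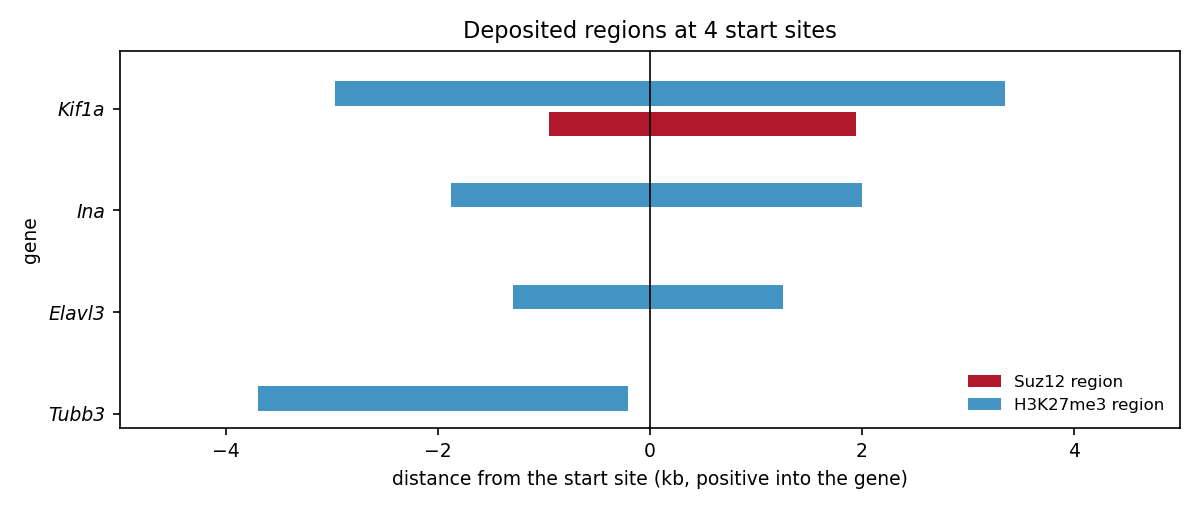
Deposited Suz12 and H3K27me3 regions around the start sites of Kif1a, Ina, Elavl3 and Tubb3, the 4 genes with a region within 2500 bp. The horizontal axis is the distance from the start in kb, positive into the gene. Kif1a alone has both kinds of region, and the Tubb3 region ends 201 bp before the start.

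A comparison over gene spans extended by 2500 bp, added after the data were seen so that all 10 genes could be placed, found Suz12 regions at 3 genes: Kif1a, Nefl (chr14:68082230-68085376) and Nefm (chr14:68123192-68125647). Over 26124 genes, 11.4% had one. Nefl also had an H3K27me3 region (chr14:68080968-68085067), which made 5 of 10 genes with that mark against 21.1% of all genes. Nefl and Nefm are neighbours, 30449 bases apart on chromosome 14.

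In ESC the 10 genes did not move as a block. Ina and Kif1a lay below WT in KO and in both 3D lines, which is how they were chosen, while Nefm lay above WT in the same 3 lines and Stmn2 stayed near WT. Levels below are in RPM, mean scaled reads as a share of the table's total, derived approximately from a table's mean and fold change. They are given within a gene only, and because each table was scaled separately their order across lines is a description.

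The filament gene Ina stood at 92.0 to 96.3 RPM in WT across the 7 ESC tables, at 13.5 in KO, 30.0 in KO-S3D and 3.7 in KO-L3D. Its log2 fold changes against WT in the authors' deposited tables were -2.80 ± 0.22 (SE) in KO, -1.68 ± 0.42 in KO-S3D and -4.71 ± 0.31 in KO-L3D. The long-isoform line with the mutation thus lay lowest, with the full knock-out next. Suz12 mRNA also differed between the 3D lines, at -1.85 in KO-L3D and -0.06 in KO-S3D against WT. Isoform and Suz12 mRNA level can therefore not be told apart between them, for this or any other gene. Nefm stood at 2.1 to 2.8 RPM in WT, 9.4 in KO, 6.2 in KO-S3D and 45.0 in KO-L3D. Its log2 fold changes were 1.84 ± 0.37, 1.21 ± 0.90 and 4.44 ± 0.44 in the authors' deposited tables, opposite in sign to those of Ina in each line. Nefl had 0.29 ± 0.22 (KO), 1.49 ± 0.31 (KO-L3D) and -1.10 ± 0.50 (KO-S3D) in the authors' deposited tables. The 3 filament genes of the set thus differed among themselves within 1 line.

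Among the microtubule genes, Stmn2 lay within 0.30 (log2) of WT in KO and both 3D lines in the authors' deposited tables. Tubb3 had -0.33 ± 0.34 (KO), -0.76 ± 0.36 (KO-L3D) and -1.30 ± 0.52 (KO-S3D) in the authors' deposited tables. Map2 had -0.15 (KO), -1.10 ± 0.39 (KO-L3D) and -1.34 ± 0.47 (KO-S3D) in the authors' deposited tables. Both genes thus lay lower in the 3D lines than in KO, without a test of that difference. Dcx had a mean of 1.3 to 4.9 scaled reads per library in the 7 ESC tables, too few for a fold change.

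The motor gene Kif1a stood at 48.9 to 60.8 RPM in WT and at 23.7 (KO), 6.4 (KO-L3D) and 6.1 (KO-S3D) in the lines. The authors' deposited tables gave -1.27 ± 0.19 (KO), -3.21 ± 1.26 (KO-L3D) and -3.17 ± 0.39 (KO-S3D). The KO-L3D value has the largest standard error of the 3 and was the only one that the authors' table did not call. Elavl3 had -0.47 ± 0.26 (KO), -1.65 ± 0.50 (KO-L3D) and -1.04 ± 0.55 (KO-S3D) in the authors' deposited tables. Elavl4 had -0.06, -0.88 ± 0.70 and -1.20 ± 0.82 in the same authors' deposited tables.

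At an adjusted p under 0.05, the authors' deposited table of ESC KO called 3 of the 9 genes it adjusted (Nefm higher, Ina and Kif1a lower), where 18.3% of all genes were called, 11.0% higher and 7.27% lower. The authors' deposited table of KO-L3D called 5 of 9 (Nefl and Nefm higher, Ina, Elavl3 and Map2 lower), where 18.3% were called, 8.22% higher and 10.1% lower. The authors' deposited table of KO-S3D called 2 of 9 (Ina and Kif1a lower), where 3.23% were called and 1.18% called lower. These counts follow from the choice of the set and carry no further weight. In the same tables the summed level of 6 ESC markers went from 2864 to 4214 RPM (KO), from 2992 to 4280 (KO-L3D) and from 2869 to 3503 (KO-S3D), with 3, 3 and 1 of 6 called higher. The 3 mesoderm markers went from 2.05 to 18.3 RPM in KO (2 called higher), from 2.0 to 117 in KO-L3D (1 called, Hand1) and from 5.88 to 83.5 in KO-S3D (0 called). Of 3 trophoblast markers, Cdx2 was called higher in KO, Cdx2 and Elf5 in KO-L3D, and none in KO-S3D. The neural progenitor marker Pax6 was called lower in KO-L3D, and the glial marker Mbp higher in KO. The part of these shifts in the neuronal genes was not tested.

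**Figure D2:**
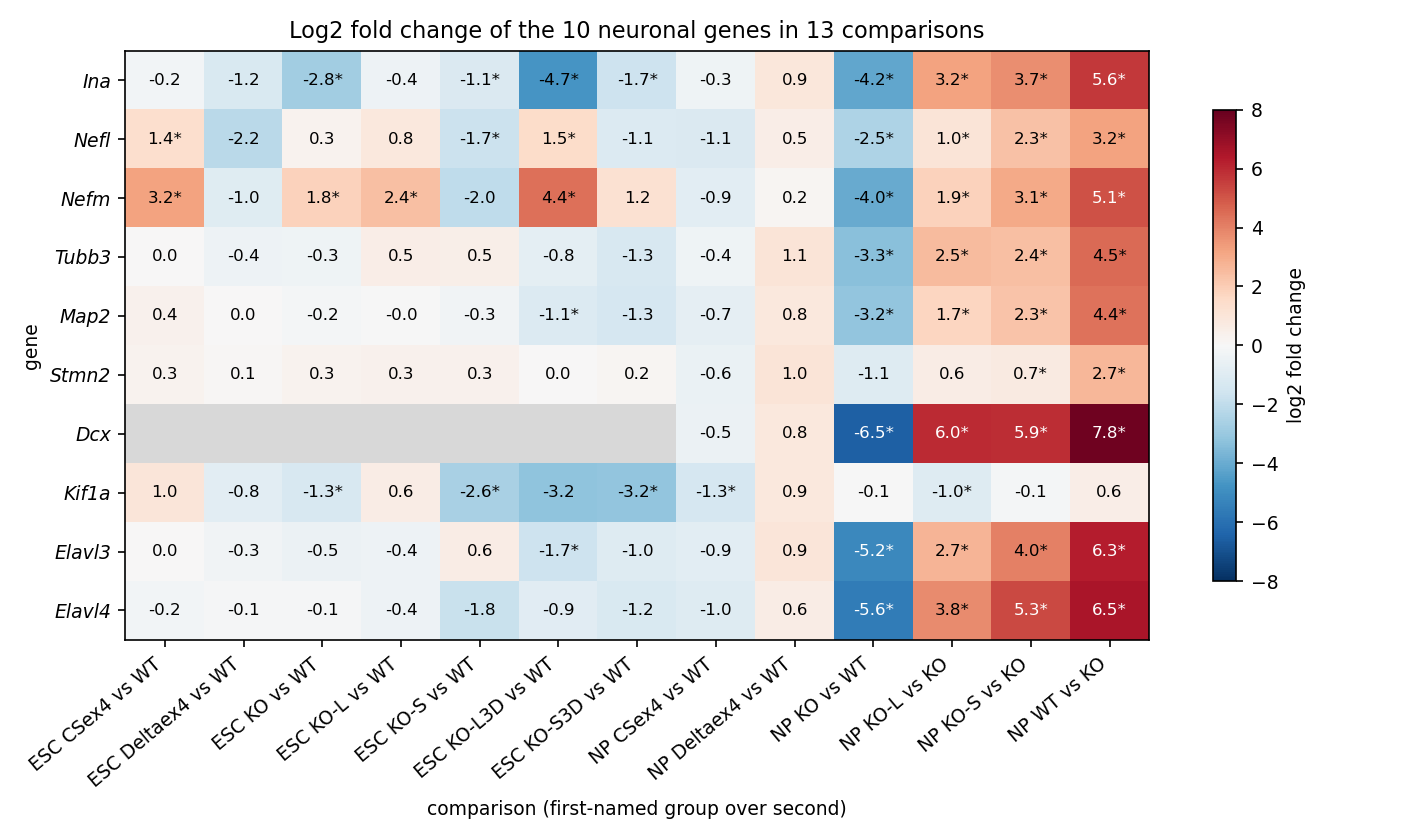
Log2 fold changes of the 10 genes (rows) in the 13 comparisons (columns), from the authors' deposited tables, with an asterisk where the adjusted p was under 0.05. Grey cells are Dcx in ESC, where the mean was under 10 scaled reads. The ESC columns hold both signs, and in the NP KO vs WT column 8 of 10 genes are called lower.

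The unmutated rescues carry a single Suz12 isoform each, with Suz12 mRNA below WT in both. Kif1a, Nefl and Nefm, the transport motor and 2 neurofilament chains, were higher with the long than with the short isoform. Against WT, 3 of the 9 genes tested fell in the authors' deposited table of ESC KO-S, where 7.91% of all genes were called and 3.63% called lower. Kif1a fell by 2.57 ± 0.31 (log2, adjusted p 6.56e-14), Nefl by 1.75 ± 0.32 (adjusted p 4.26e-06) and Ina by 1.13 ± 0.30 (adjusted p 0.00403) in the authors' deposited table. Kif1a and Ina had been chosen as low against the same WT samples. Nefm (-2.05 ± 0.82) and Elavl4 (-1.77 ± 0.71) missed the threshold, each with an adjusted p of 0.111 in the authors' deposited table. For KO-L, the authors' deposited table called Nefm alone of the 9, at 2.42 ± 0.65 (adjusted p 0.0147), where 2.23% of all genes were called and 1.46% called higher. Nefl (0.84 ± 0.33, adjusted p 0.215), Kif1a (0.62 ± 0.39, adjusted p 0.684) and Ina (-0.42 ± 0.31, adjusted p 0.802) did not pass in the authors' deposited table of KO-L.

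The difference between the rescues was tested from the 2 deposited fold changes and their standard errors, adjusted over all genes. Kif1a was higher in KO-L than in KO-S by 3.19 ± 0.50 (95% interval 2.22 to 4.17, adjusted p 7.76e-08). For Nefl the difference was 2.59 ± 0.46 (1.69 to 3.49, adjusted p 4.65e-06), and for Nefm 4.47 ± 1.05 (2.42 to 6.52, adjusted p 0.00146). These were 3 of the 9 genes tested, where 4.21% of all genes passed and 2.75% did so in this direction. In levels, Kif1a stood at 81.4 RPM (KO-L) and 9.2 (KO-S), with WT between them, and Nefl at 63.1 and 10.5. Nefm stood at 11.2 and 0.7 RPM, the latter under 1.

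The remaining 6 genes did not pass. Ina differed by 0.71 ± 0.43 (-0.14 to 1.56, adjusted p 0.499) between the rescues. The intervals for Stmn2 (-0.73 to 0.73) and Tubb3 (-0.82 to 0.92) leave out a difference as large as that of Kif1a. For Elavl4 the interval (-0.58 to 3.26) does not. Elavl3 was on the other side of 0, at -0.98 ± 0.61 (adjusted p 0.509). The 3 genes with a difference were also those with a Suz12 region in the comparison over gene spans, an overlap seen after both results and not tested. ESC markers were called in the authors' deposited table of KO-S (2 of 6 higher, 2838 to 3446 RPM in sum) and not in that of KO-L (2810 to 2167). Of the mesoderm markers, T and Hand1 were called higher in KO-L (1.76 to 13.5 RPM for the list of 3) and Hand1 in KO-S (1.69 to 7.25). In KO-S the neural progenitor markers split, with Sox1 higher and Pax6 lower, and the trophoblast marker Tfap2c was lower. The summed endoderm markers went from 12.8 to 131 RPM in KO-S with 0 of 4 called. No neural progenitor marker was called in KO-L, where the list median was 0.14 (log2) but the summed level went from 41.5 to 152 RPM. Their part in the neuronal values was not tested.

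The lines with exon 4 fixed or removed at the endogenous gene were compared in the same way. Nefm (3.23 ± 0.64, adjusted p 2.07e-04) and Nefl (1.36 ± 0.40, adjusted p 0.0314) rose in the authors' deposited table of ESC CSex4, 2 of 9 genes tested, where 2.41% of all genes were called and 1.72% called higher. Kif1a, at 0.99 ± 0.32 (adjusted p 0.0752), and Ina, at -0.20 ± 0.31, did not pass in the authors' deposited table. Nefm stood at 20.3 and Nefl at 94.0 RPM in CSex4. None of the 10 genes (0) and 0% of all 20263 genes were called in the authors' deposited table of ESC Deltaex4, whose columns are those of DESeq2. At an unadjusted p under 0.05 that table held 2 of the 10 genes, Nefl (-2.18 ± 0.71, p 0.00217) and Ina (-1.22 ± 0.47, p 0.00875), and 0.666% of all genes in the authors' deposited table. That share is below what a threshold of 0.05 passes when no gene changes. The lack of calls in ESC Deltaex4 thus cannot show that these genes were unchanged.

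Nefl was higher in CSex4 than in Deltaex4 ESC by 3.53 ± 0.81 (1.94 to 5.13, adjusted p 0.0210), the only 1 of 9 genes to pass, where 0.0796% of all genes passed and 0.0724% did so in this direction. Nefm differed by 4.21 ± 1.25 (1.76 to 6.66, adjusted p 0.204) and Kif1a by 1.82 ± 0.71 (0.43 to 3.20, adjusted p 0.559), neither past the threshold. Both tables share WT, which these standard errors ignore. With a correlation of 0.5 between the estimates, an assumed value, 3 of the 9 genes passed, where 2.96% of all genes did. The levels of 6 ESC markers moved in CSex4, from 2791 to 1490 RPM in sum, with 3 of 6 called lower. The mesoderm marker T and the trophoblast marker Cdx2 were called higher. None of the neural progenitor markers was called, and their list median was 0.03 (log2), with Nes alone far above it at 3.04 ± 1.51 in the authors' deposited table. Their summed level went from 40.8 to 290 RPM. The part of any of these lists in the Nefl and Nefm values was not tested.

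**Figure D3:**
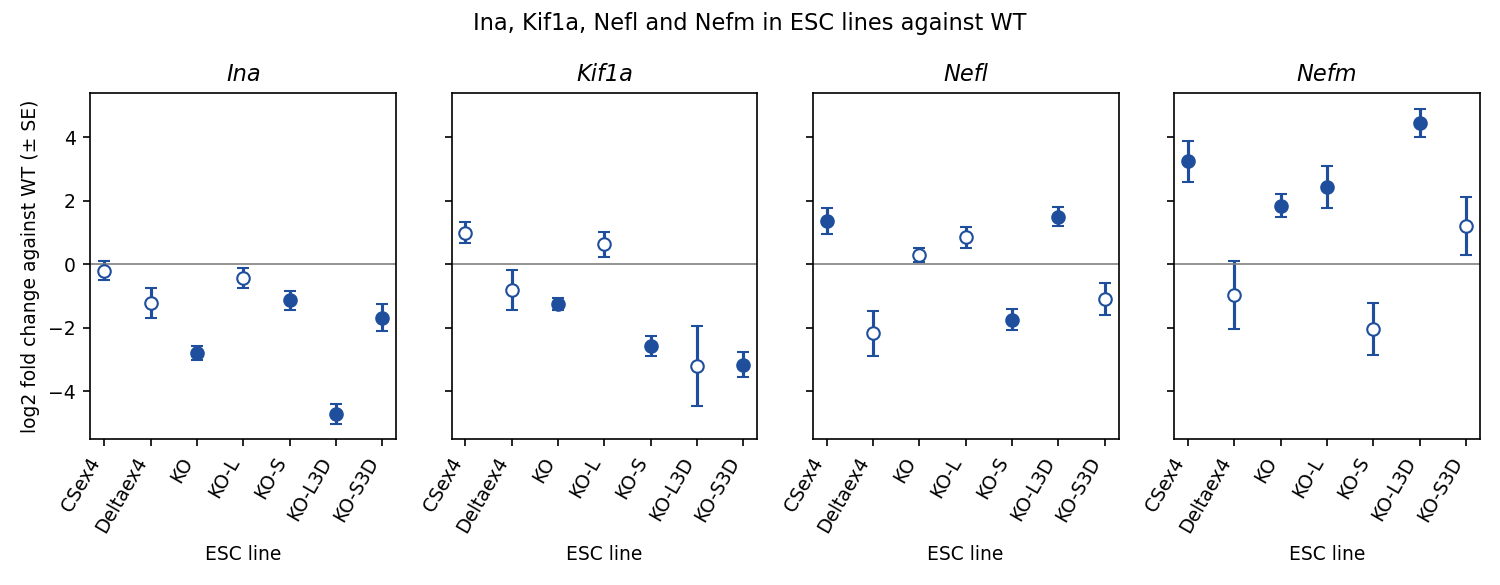
Log2 fold change against WT (vertical axis, bars are ± SE from the authors' deposited tables) of Ina, Kif1a, Nefl and Nefm in 7 ESC lines (horizontal axis). Filled points were called at an adjusted p under 0.05. Nefl and Nefm lie above 0 in CSex4 and KO-L and below 0 in Deltaex4 and KO-S, while Ina lies below 0 in all 7 lines.

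In NP without Suz12, 8 of the 10 genes fell, and Kif1a and Stmn2 were not called. The authors' deposited table of NP KO against WT, whose columns are those of DESeq2, called 21.4% of all genes and 9.85% lower, and the median over the 10 genes was -3.68 against -0.01 over all genes tested. Kif1a had -0.06 ± 0.42 (adjusted p 0.950) and Stmn2 -1.06 ± 0.55 (adjusted p 0.176) in the authors' deposited table. In bulk RNA, fewer neurons and less RNA per neuron cannot be told apart.

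Among filament genes, the authors' deposited table gave -4.19 ± 0.49 for Ina, -4.04 ± 0.40 for Nefm and -2.46 ± 0.44 for Nefl. Ina stood at 4.1 to 5.6 RPM in KO and at 84.6 to 204.8 in WT, each across 4 tables. Such ranges, here and below, are between tables that reuse samples and are not a spread between single samples. Those of NP WT also span different WT samples, and their upper ends come from the pair in the WT vs KO table. With the first WT pair alone, Ina stood at 84.6 to 101.3 RPM. Among microtubule genes, the authors' deposited table gave -6.54 ± 1.72 for Dcx (adjusted p 0.00146), -3.32 ± 0.46 for Tubb3 and -3.17 ± 0.49 for Map2. Dcx stood at 1.2 to 1.7 RPM in KO and 128.8 to 291.4 in WT, which made it the gene of the set with the largest fold change. It had been chosen as high against the same KO samples. The Hu genes fell by 5.57 ± 0.56 (Elavl4) and 5.17 ± 0.44 (Elavl3, adjusted p 1.47e-29) in the authors' deposited table. Kif1a, by contrast, stood at 81.4 to 90.3 RPM in KO and 90.4 to 120.9 in WT.

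The second pair, the other 2 WT samples, gave larger values. Here 9 of 10 genes were higher in WT than in KO in the authors' deposited table, where 32.9% of all genes were called and 15.6% called higher. Dcx stood 7.80 ± 0.42 above KO, Elavl4 6.54 ± 0.38 and Stmn2 2.68 ± 0.28 in the authors' deposited table, and Kif1a, the exception, 0.56 ± 0.28 (adjusted p 0.114). All 10 genes had both a larger difference and a higher implied level in this WT pair than in the first, by 1.28-fold (Nefl) to 2.44-fold (Stmn2) in level. Stmn2 was called against this pair only. The summed level of the 6 ESC markers was 89.4 RPM in this pair and 266 in the first, and that of 5 neural progenitor markers was 669 and 421. Whether these shifts have a part in the difference between the pairs was not tested.

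Markers of other cell types moved with the KO. Of the lists, 4 of 5 neural progenitor markers were lower (421 to 95.7 RPM in sum), 3 of 4 endoderm markers higher (135 to 442) and 2 of 3 trophoblast markers higher (46.6 to 70.4) in the authors' deposited table of NP KO against WT. Of 6 ESC markers, 2 were higher (266 to 292), and 1 of 3 glial markers was higher (33.0 to 67.6). None of 3 mesoderm markers was called, and Mesp1 was under 1 scaled read. Their part in the fall of the neuronal genes was not tested.

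Dcx was higher than in KO with either isoform, which is how the NP comparisons entered the choice, so the rescue values are a description. Dcx stood at 80.3 RPM with the long and 73.8 with the short isoform, and its log2 fold changes against KO were 5.98 ± 0.81 and 5.91 ± 0.95 in the authors' deposited tables. The 2 rescues thus lay close together for this gene, between KO and WT. Ina stood at 38.0 and 55.1 RPM, with 3.19 ± 0.28 and 3.74 ± 0.24 in the authors' deposited tables. Tubb3 stood at 108.5 and 101.0 RPM, with 2.53 ± 0.21 and 2.43 ± 0.20 in the authors' deposited tables. For Nefm the values were 1.85 ± 0.36 (KO-L) and 3.06 ± 0.27 (KO-S), and for Nefl 1.04 ± 0.28 and 2.35 ± 0.23, in the authors' deposited tables.

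The Hu genes also lay further above KO in KO-S, with 2.74 ± 0.47 (KO-L) and 4.04 ± 0.33 (KO-S) for Elavl3 and 3.81 ± 0.46 and 5.27 ± 0.34 for Elavl4 in the authors' deposited tables. Map2 had 1.70 ± 0.26 and 2.26 ± 0.22, and Stmn2 0.58 ± 0.26 and 0.75 ± 0.23, in the authors' deposited tables. Kif1a again stood apart. Against KO it had -1.01 ± 0.21 with the long and -0.15 ± 0.18 with the short isoform in the authors' deposited tables, at 41.0 and 73.6 RPM. The authors' deposited table of KO-L called 8 genes higher and 1 lower, where 24.7% of all genes were called, 10.9% higher and 13.8% lower. That of KO-S called 9 higher, where 34.5% were called and 16.4% called higher. The sum of the ESC markers went from 273 to 802 RPM with the long isoform (4 of 6 higher, 1 lower) and from 280 to 165 with the short (3 of 6 lower) in these tables. Neural progenitor markers were higher in both (3 of 5 with 1 lower, 92.1 to 223 RPM, long; 5 of 5, 89.6 to 383, short), and endoderm markers lower (3 of 4, 422 to 171, long; 4 of 4, 414 to 200, short). Trophoblast markers were split with the long isoform (1 of 3 higher, 1 lower) and 3 of 3 were lower with the short. The part of these lists in the neuronal values was not tested.

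**Figure D4:**
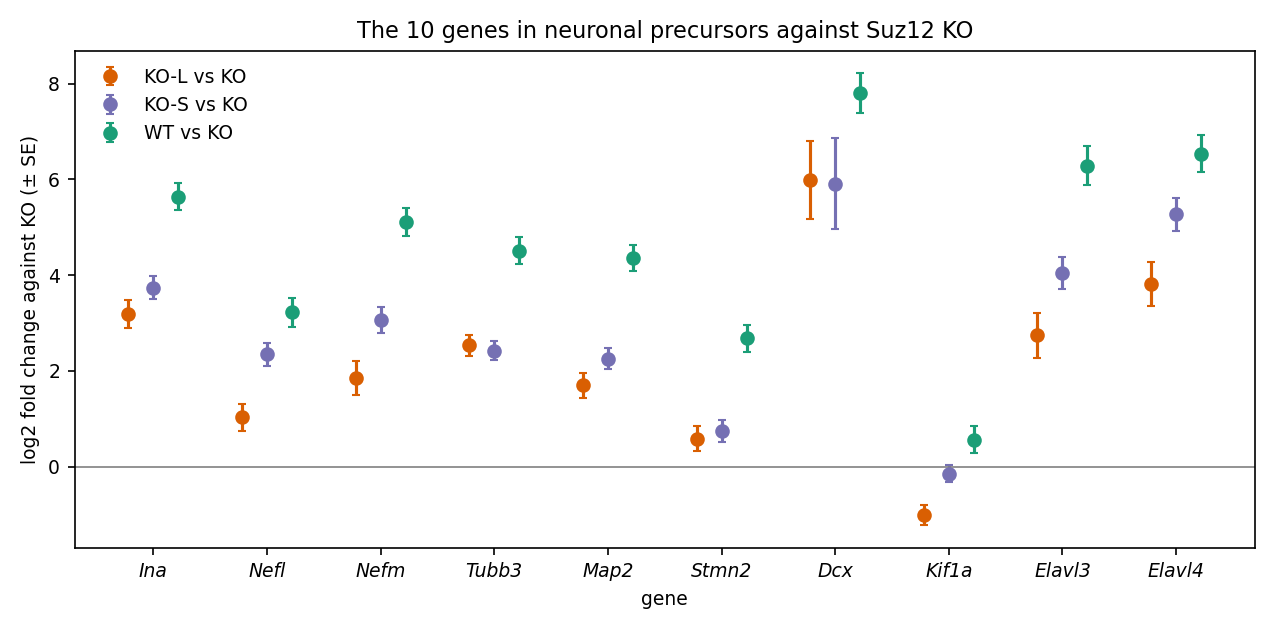
Log2 fold change against KO (vertical axis, bars are ± SE from the authors' deposited tables) of the 10 genes (horizontal axis) in NP of KO-L, KO-S and the second WT pair. Kif1a is the only gene with points below 0, and the WT point is the highest of the 3 for every gene. The 3 comparisons share the KO samples.

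With exon 4 fixed or removed, the 10 genes lay on opposite sides of the first WT pair in NP, mostly short of the threshold. Implied levels in the second WT pair were above those of Deltaex4 for every gene but Kif1a. Ina stood at 204.8 RPM in that pair and 156.7 in Deltaex4, and Kif1a at 120.9 and 164.3. These levels come from separately scaled comparisons and were not tested. All 10 had negative log2 fold changes in the authors' deposited table of NP CSex4, with a median of -0.78, against -0.04 over all genes tested. Kif1a, at -1.33 ± 0.41 (adjusted p 0.0236), was the 1 gene of 10 called in the authors' deposited table, where 5.53% of all genes were called and 1.45% called lower. The next largest were Nefl (-1.14 ± 0.46, adjusted p 0.143) and Elavl4 (-1.02 ± 0.44, adjusted p 0.191) in the authors' deposited table. All 10 were positive in the authors' deposited table of NP Deltaex4, from 0.18 (Nefm) to 1.05 ± 0.49 (Tubb3), with a median of 0.85. None was called there, where 0.0809% of all genes were. At an unadjusted p under 0.05 that authors' deposited table, with DESeq2's columns, held 1 of the 10 genes (Tubb3, p 0.0302) and 398 genes in all, 2.30% of those tested. This share too is below what a threshold of 0.05 passes when no gene changes. The lack of calls in NP Deltaex4 thus cannot show that the genes were unchanged.

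Kif1a was lower in CSex4 than in Deltaex4 NP by -2.20 ± 0.61 (-3.40 to -0.99, adjusted p 0.0259), and it was the 1 gene of 10 that passed, where 1.81% of all genes passed and 0.520% did so in this direction. All 10 differences were negative, with a median of -1.55, against -0.02 over all genes tested. Of the 10, 7 had an unadjusted p under 0.05, as did 10.8% of all genes. With an assumed correlation of 0.5 between the tables, which share WT, 7 passed, where 10.1% of all genes did. Kif1a stood at 38.5 RPM in CSex4 and 164.3 in Deltaex4. For NP CSex4 the authors' deposited table had 5 of 6 ESC markers higher (238 to 1184 RPM in sum) and 3 of 5 neural progenitor markers lower (413 to 192). In addition 1 of 3 mesoderm and 1 of 3 trophoblast markers were higher. In Deltaex4 no marker of these lists was called (ESC markers 253 to 210, neural progenitor markers 397 to 762). Their part in the neuronal values was not tested.

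**Figure D5:**
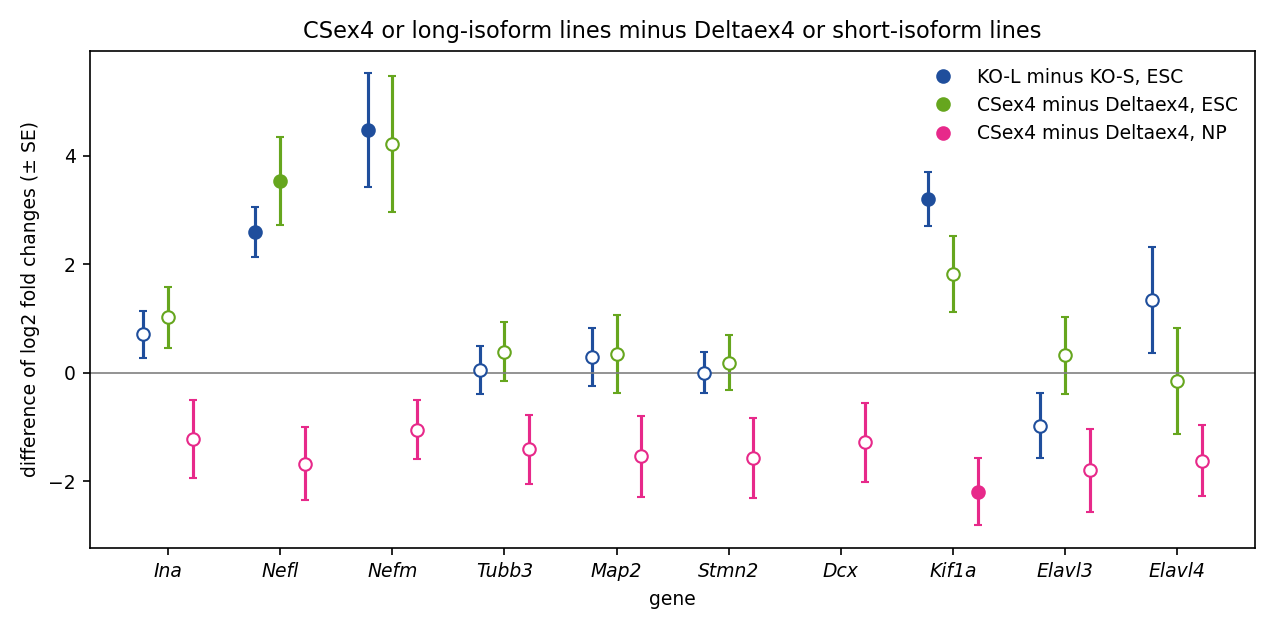
Difference of log2 fold changes (vertical axis, bars are ± SE) between CSex4 or KO-L and Deltaex4 or KO-S for the 10 genes (horizontal axis), with filled points at an adjusted p under 0.05. Kif1a, Nefl, Nefm, Ina, Tubb3 and Map2 lie above 0 in both ESC differences, and all 10 genes lie below 0 in NP. Dcx is left out in ESC.

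The effect of constitutive exon 4 was then compared between cell types. Nefm (-4.10 ± 0.74, adjusted p 7.29e-06), Nefl (-2.50 ± 0.61, adjusted p 0.00195) and Kif1a (-2.33 ± 0.52, adjusted p 6.72e-04) had lower log2 fold changes in NP than in ESC, 3 of 9 genes tested, where 5.38% of all genes passed and 2.51% did so in this direction. Ina differed by -0.13 ± 0.55 (-1.22 to 0.95) and Tubb3 by -0.36 ± 0.52 (-1.38 to 0.66). For Deltaex4 the same test, made on DESeq2's deposited estimates, passed 0 of 10 genes and 0.00584% of all genes. At an unadjusted p under 0.05, 4 of the 10 and 0.993% of all genes tested (170) differed there, among them Nefl (2.71 ± 0.86) and Ina (2.11 ± 0.72). That share is below what a threshold of 0.05 passes when no gene differs, so the lack of passing genes cannot show that there was no difference.

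Stmn2 had a higher implied level in every ESC group than in any NP group. It stood at 209.7 to 278.2 RPM in every ESC group, at 51.6 to 141.7 in NP WT and at 22.2 to 27.9 in NP KO. No ESC table called it, and its log2 fold changes in the authors' deposited ESC tables lay between 0.03 and 0.33. Ina also stood at similar levels in ESC WT (92.0 to 96.3 RPM) and in the first NP WT pair (84.6 to 101.3). ESC and NP were normalised in separate tables, and neither the order for Stmn2 nor the likeness for Ina was tested.

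A list of 43 other neuronal genes, fixed by function, was read beside the 10. Of the 43, 34 fell and none rose in the authors' deposited table of NP KO, where 9.85% of all genes were called lower: 16 of 17 microtubule, transport and growth cone genes, 6 of 7 RNA-binding genes, 5 of 8 synaptic vesicle genes, 6 of 6 transcriptional regulators and 1 of 3 genes of the REST repressor. Lowest of all in the authors' deposited table were the regulators Myt1 (-7.37 ± 1.83) and Nhlh2 (-7.29 ± 0.66) and the splicing factor gene Celf3 (-6.75 ± 0.67). Against KO, 36 of the 43 were higher and 1 lower in the second WT pair, 32 and 2 in KO-L, and 32 and 1 in KO-S, in the authors' deposited tables. Over all genes, 15.6%, 10.9% and 16.4% were called higher in the same tables. Nefh, the heavy neurofilament chain, was the gene lower in all 3 and went the other way from Nefl and Nefm, at -1.88 ± 0.57 in WT against KO (adjusted p 0.00467), -1.99 ± 0.55 (KO-L) and -2.63 ± 0.54 (KO-S) in the authors' deposited tables. It was not called in KO against the first WT pair. In NP CSex4 the only call among the 43 was the repressor gene Rest, at 1.09 ± 0.33 (adjusted p 0.0233) in the authors' deposited table, with a list median of -0.75. In NP Deltaex4 the list median was 0.77 with 0 calls in the authors' deposited table, whose columns are those of DESeq2.

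In ESC the count of calls among the 43 differed by line. In the authors' deposited tables, 12 of 39 adjusted genes were called in KO (6 higher, 6 lower), 15 of 38 in KO-L3D (5 and 10) and 5 of 35 in KO-S3D (1 and 4), where 18.3%, 18.3% and 3.23% of all genes were called. Crmp1, a growth cone gene, was lower in all 3, at -1.78 ± 0.31, -3.97 ± 0.38 and -2.25 ± 0.38 in the authors' deposited tables, and Mapt, which encodes tau, was higher in all 3, at 1.35 ± 0.31, 2.28 ± 0.32 and 1.51 ± 0.43. The authors' deposited table of CSex4 had Stmn4 (3.89 ± 0.74, adjusted p 1.25e-04), a stathmin, and Gap43 (2.30 ± 0.56, adjusted p 0.00480), a growth cone protein, higher. The authors' deposited table of KO-L had Gap43 alone (1.71 ± 0.50, adjusted p 0.0363). The authors' deposited table of KO-S had 3 higher, led by the filament gene Prph (2.72 ± 0.33, adjusted p 5.49e-14), and 8 lower, led by the Hu gene Elavl2 (-3.37 ± 0.34, adjusted p 1.77e-19), out of 37 adjusted, where 7.91% of all genes were called. Filament genes thus again lay on both sides, with Prph higher and Nefl lower in KO-S.

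The genes most like each of the 3 choosing genes were found by the root mean square difference of log2 fold changes over the 13 tables, among 11417 genes with a median mean of at least 100 scaled reads. Nearest to Ina were Insm1 (0.83), Crmp1 (0.86) and Dll1 (0.93). Nearest to Kif1a were Sorbs2 (0.48), Vash2 (0.52) and Gfra1 (0.65). Nearest to Dcx was Cntn2 at 1.91, and with a minimum of 10 reads it was Msx3 at 1.02, with none of the first 3 genes kept. The Dcx distances include the 7 ESC tables in which Dcx had too few reads for a fold change. The tables share samples, so these distances describe the tables and are not tested.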

How the data were processed

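The members, the lists and the comparisons were chosen with earlier results of these data known. The 32 RNA-seq samples (18 ESC, 14 NP) were grouped by their titles. The authors deposited 13 tables of comparison statistics, and values of single samples were not used here. Per the file headers, each table gives a signal (baseMean, the mean of reads scaled by size factors), a log2 fold change with its standard error, a statistic, here treated as a score, and a p-value with its adjusted p-value. Bowtie, TopHat, DESeq2, DiffBind and the builds mm10 and dm3 are named in the submitters' processing notes, and the table names call the fits paired. The counting strand is not given in the sources used here, so reads of overlapping antisense genes, such as one at the start of Nefm, could not be told apart. Reads shared by near-identical paralogs of Tubb3 and Elavl genes are likewise uncertain. Each region carries a p-value-like number of 0 to 1, which the file headers tie to DiffBind and a 5% false discovery rate and whose exact kind is not given in the sources used here.

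Calls used the authors' deposited adjusted p-value at a threshold of 0.05. Differences between comparisons were tested with a two-sided normal test on the deposited log2 values, with Benjamini-Hochberg adjustment over all genes, after a check on simulated data. Levels (RPM) were derived from the deposited baseMean signal and fold change. Named genes were the 10 members, at most 3 called companions per direction and comparison, and the 3 genes nearest to Ina, Kif1a and Dcx; Suz12 was read as a check. Regions were taken as at a gene within 2500 bp of a start with at least 1 bp of overlap. Alternatives were other thresholds, a baseMean minimum of 10, a log2 fold change minimum of 1, centring on the median, other windows and a correlation of 0.5. Python 3.11.15, numpy 2.4.6, pandas 2.3.3 and scipy 1.17.1 were used.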

Additional observations from a re-analysis of the deposited data

Results flagged for a closer look

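The effect of constitutive exon 4 differed between NP and ESC by a test of the difference itself for 3 genes. The log2 difference, NP minus ESC, was -4.10 for Nefm, -2.50 for Nefl and -2.33 for Kif1a. Nefm and Nefl rose in ESC, at 3.23 and 1.36 in the authors' deposited table, and had -0.87 and -1.14 in NP, where neither passed. Kif1a had 0.99 in ESC, short of the threshold, and fell by 1.33 in NP in the authors' deposited table. ESC markers moved in both tables, from 2791 to 1490 RPM in ESC and from 238 to 1184 in NP, and their part in these differences was not tested.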

How the results depend on the processing

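No paired analysis was possible because the tables hold statistics of comparisons and not values of samples; leaving out samples was not run for the same reason. At an adjusted p under 0.01 the genes called went from 2 to 1 in ESC CSex4, from 1 to 0 in ESC KO-L and in NP CSex4, and from 1 to 0 in the differences between CSex4 and Deltaex4 in ESC and in NP. A correlation of 0.5 between tables that share WT raised those 2 differences to 3 and 7 genes. Gene spans in place of start sites raised the genes with a Suz12 region from 1 of 7 to 3 of 10. The added genes were Nefl and Nefm, which had no promoter entry and could not be placed by start site. A window of 10000 bp around start sites left the count at 1 of 7. With the other WT samples Stmn2 fell by 2.68 in NP KO and was then called. With a minimum of 10 reads, 0 of the 3 genes nearest to Dcx were shared. The cause of each shift was not tested, beyond the stricter threshold, the narrower standard error and the placing of genes without a promoter entry. The other settings, among them centring on the median and a fold change minimum of 1 in all 13 comparisons, left the counts within 1.5 times, and no result changed direction. Depth limits Dcx in ESC and, in the short-isoform rescue, Nefm.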
